A study of Arabidopsis thaliana with 5 samples.

Results

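The comparison set a library pooled from 6 Arabidopsis thaliana plants against 2 libraries made from a plant each, mutant 1 and mutant 2, all grown from seeds that had made the same balloon flight over Antarctica. These 3 of the 5 libraries of the series were chosen by their labels alone, and their unfiltered lists of structural variant calls held 388 of the series' 634 calls. The pool list held 182 calls, against 112 in mutant 1 and 94 in mutant 2. Calls were sorted by where their ends lay: within an organelle genome, between a nuclear chromosome and an organelle, between nuclear chromosomes, or within a nuclear chromosome by type.

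All 3 libraries were of ecotype Col-0, from seeds carried for 30 days at about 35 km altitude and grown on plates of solid medium under continuous light. The plants were of the irradiated generation itself, labelled M0, had been picked as mutants, and were frozen whole. The pool held 1 plant of 17 days and 5 plants of 21 days, grown from 3 seed bins labelled P19 (3 plants), R2 (2 plants) and C18 (1 plant), with 15 mg of tissue. Mutant 1 was 44 days old and mutant 2 was 45 days old, with 10 mg each. Number of plants, age, amount of tissue and library therefore differ together between the pool and the single plants and cannot be told apart, and 1 library against 2 allows no test. Mutants 4 and 5, the other libraries of the series, are named below for comparison. Each was a single plant of 45 days from beam-irradiated seeds, with 10 mg and 20 mg of tissue. Their labels read M1, where the Antarctic plants were labelled M0. No unirradiated library was analysed here.

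Charged particles break both strands of DNA, and joining of the wrong ends gives deletions, inversions, duplications and translocations. An irradiated seed already holds many cells, so a plant grown from it can be a mosaic, and a change carried by some cells of 1 pooled plant reaches only a small share of the reads of the pool. Plant cells hold many copies of the circular chloroplast genome, which carries a pair of large inverted repeats, and of the mitochondrial genome. The nuclear genome holds copies of organelle DNA, among them a large stretch of mitochondrial DNA near the centromere of chromosome 2 in Col-0, and long arrays of ribosomal RNA genes that the assembly holds in part.

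The evidence for a call was the number of split reads, long reads whose parts align to different places, that support it. The lists held no sequencing depth, and no call had fewer than 5 reads. Supporting reads summed to 1446 over the pool list, 1139 over mutant 1 and 937 over mutant 2. The pool therefore had most reads in support, and the lowest median per call, 6 against 7 in each single plant. Neither held without inverted duplications, a type described below. The sums were then 742 in the pool, 1113 in mutant 1 and 925 in mutant 2, and the median was 7 in each. Calls with at least 10 reads numbered 26 in the pool, against 33 in mutant 1 and 23 in mutant 2. In all 5 libraries of the series no call within a nuclear chromosome or within an organelle exceeded 10 reads, so such a minimum leaves mostly joins between chromosomes or to organelles, whichever the library. Positions are given as the lists print them, on TAIR10, and percentages carry exact Clopper-Pearson 95% intervals, which cover counting error only.

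**Figure D1:**
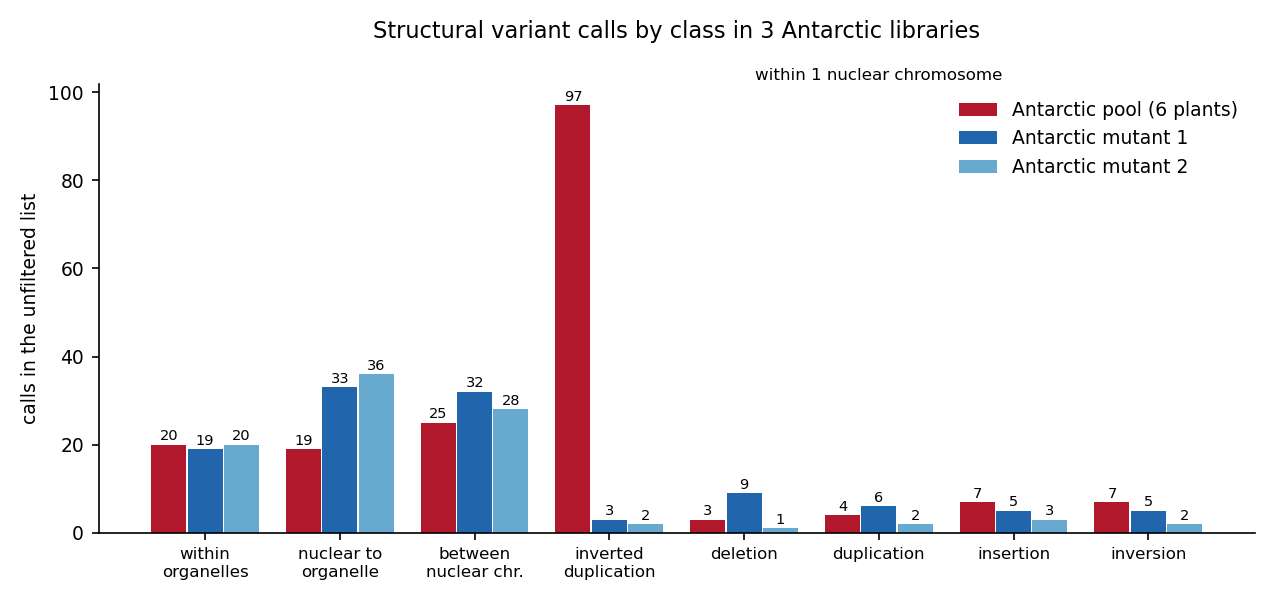
Number of unfiltered calls (vertical axis) in each class for the Antarctic pool of 6 plants, mutant 1 and mutant 2, from left to right in each class. The pool has 97 nuclear inverted duplications, against 3 and 2 in mutants 1 and 2, and 19 joins of nuclear chromosomes to organelles, against 33 and 36.

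Inverted duplications, in which a stretch of DNA is followed by its own copy in reverse, made most of the difference in call number. Within nuclear chromosomes the pool list held 97 of them, 53.3% of its calls (interval 45.8 to 60.7%), against 3 calls or 2.68% in mutant 1 and 2 calls or 2.13% in mutant 2. A further 14 lay in the chloroplast genome of the pool, against 1 in mutant 1 and 0 in mutant 2. Mutants 4 and 5, grown from beam-irradiated seeds, had 4 and 2 nuclear calls of this type and 1 chloroplast call each. Without inverted duplications of either genome the order turned round: the pool held 71 calls, against 108 in mutant 1 and 92 in mutant 2. With repeat calls merged the gap was smaller, at 66 in the pool, 87 in mutant 1 and 74 in mutant 2. In the authors' filtered lists the pool lay between the single plants, with 31 against 40 in mutant 1 and 19 in mutant 2.

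The inverted duplications of the pool were short. Predicted length ran from 31 to 4047 bp with a median of 42 bp, and 91 of the 97 nuclear calls were at most 100 bp long. Strands were plus at both ends in 38 calls and minus at both ends in 59. Supporting reads ran from 5 to 10, with 34 calls at 5 reads, 29 at 6, 13 at 7, 10 at 8, 6 at 9 and 5 at 10. The ceiling of 10 reads is that of all types within a chromosome. Positions of 41 calls were marked as precise by the caller. After merging of repeat calls at 6 places, 91 sites remained.

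**Figure D2:**
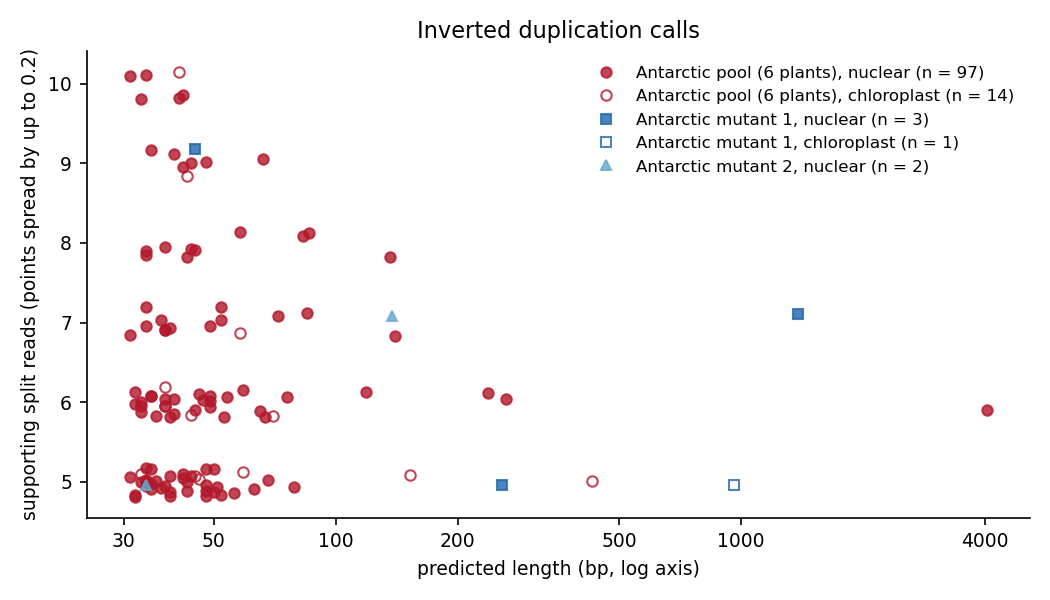
Predicted length in bp (horizontal, log axis) and supporting split reads (vertical) of every inverted duplication call, with filled points for nuclear and open points for chloroplast calls of the pool, mutant 1 and mutant 2. Calls of the pool crowd below 100 bp at 5 to 10 reads, and the longest single-plant call, in mutant 1, reaches 1380 bp.

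The sites were spread over the whole nuclear genome. Chromosomes 1 to 4 held 20 calls each and chromosome 5 held 17, which is 0.657, 1.02, 0.853, 1.08 and 0.630 calls per Mb of annotated length for chromosomes 1 to 5. The first and last sites took in at least 95.1% of the annotated length of chromosomes 1 to 4, and 74.5% of that of chromosome 5, where the first site lay at 6692219. The chloroplast genome held 90.7 calls per Mb. That genome has many copies in a cell, and the files hold no depth by which calls per copy could be given.

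Protein-coding genes held 51 of the 91 nuclear sites (56.0%, interval 45.2 to 66.4%). The part of the nuclear genome that lies in such genes was not computed, so this share has no background to be read against. The sites in genes with most reads were in AT1G74150 (42 bp at 1:27883058, 10 reads), AT1G16690 (66 bp at 1:5707547, 9 reads), IDH-IV, annotated as an isocitrate dehydrogenase (42 bp at 1:11741501, 9 reads), AT4G22900 (40 bp at 4:12010402, 9 reads) and PUM14, of the Pumilio family of RNA-binding proteins (48 bp at 5:17310611, 9 reads). The 2 calls in ERG28, named for a yeast protein of sterol synthesis, began at 1:3275450 and 1:3275452 and had 7 and 6 reads. The site in AT4G22900 was also listed 2 times, from 4:12010402 with 9 reads and from 4:12010405 with 6 reads. Only 6 of the 97 calls were longer than 100 bp, among them 119 bp in SNG1, an enzyme of sinapoylmalate synthesis, and 264 bp that began in LSMT-L, named as a Rubisco methyltransferase-like protein. The longest, 4047 bp from 1:17313692, began and ended outside protein-coding genes.

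In the chloroplast genome the 14 calls of the pool fell at 10 sites with a median length of 44.5 bp, 10 with plus and 4 with minus strands. Of these calls 3 lay in rpoC1, a subunit of the plastid RNA polymerase, and 3 ended in ndhI, a subunit of the chloroplast NADH dehydrogenase-like complex. The others in genes touched rps16 (ribosomal protein), atpF (ATP synthase), ndhF (again the dehydrogenase complex) and psaC (photosystem I). Read support ran from 5 to 10, as in the nuclear calls. The chloroplast call of mutant 1 was 960 bp long, from petD to rpoA, with 5 reads.

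The 5 nuclear inverted duplications of the single plants were 45 bp in AT3G09730 (9 reads), 258 bp at 4:11683458 (5 reads) and 1380 bp ending in VAP27-2, a protein of the endoplasmic reticulum membrane (7 reads), in mutant 1, and 34 bp in CLO4, a caleosin (5 reads), and 138 bp in MAPKKK16, a protein kinase (7 reads), in mutant 2. Lengths and reads of the pool calls overlap with these. None of the 97 nuclear calls of the pool had a partner, a call of the same type with both positions within 500 bp, in mutant 1, 2, 4 or 5. A count of 0 of 97 allows a share of up to 3.09%. Mutants 1, 2, 4 and 5 listed only 3, 2, 4 and 2 nuclear calls of this type, so few partners could have been found.

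**Figure D3:**
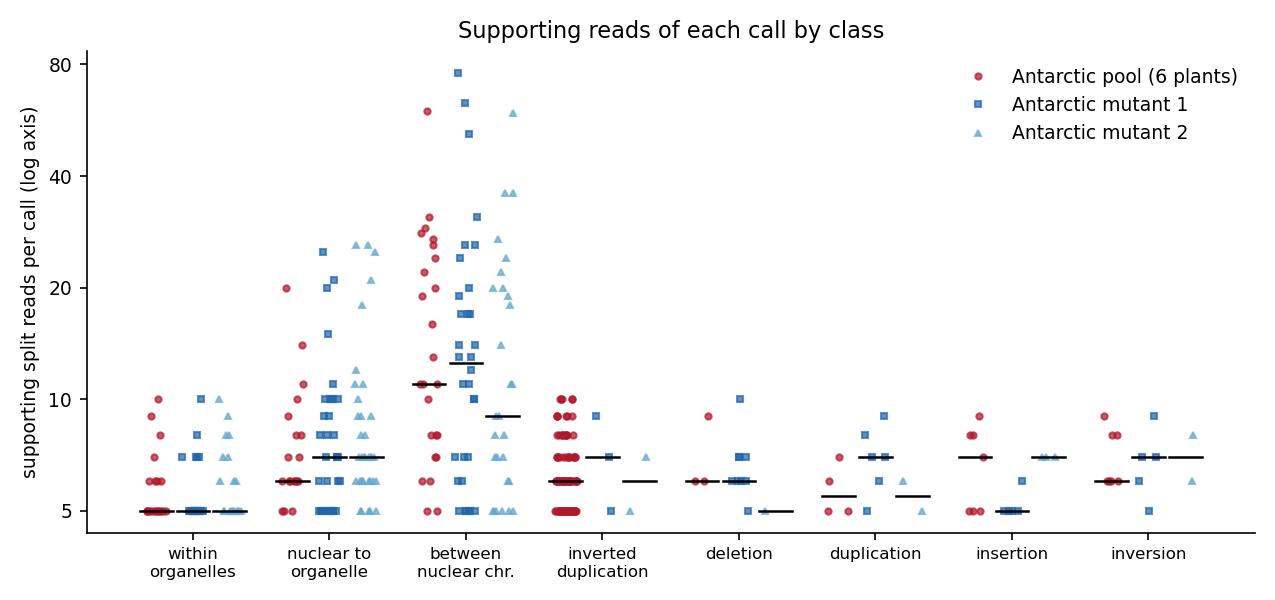
Supporting split reads of each call (vertical, log axis) by class for the pool, mutant 1 and mutant 2, with a black bar at each median. Joins between nuclear chromosomes reach the highest counts in all 3 libraries, up to 60 reads in the pool and 76 and 59 in mutants 1 and 2.

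Other types within a nuclear chromosome came to 21 calls in the pool, against 25 in mutant 1 and 8 in mutant 2, so the pool lay between the single plants. Merging of repeat calls left 17 in the pool, 18 in mutant 1 and 7 in mutant 2. Deletions numbered 3 in the pool, against 9 in mutant 1 and 1 in mutant 2. Duplications numbered 4 in the pool, against 6 in mutant 1 and 2 in mutant 2. Only insertions and inversions were more in the pool than in both single plants: 7 insertions, against 5 in mutant 1 and 3 in mutant 2, and 7 inversions, against 5 in mutant 1 and 2 in mutant 2.

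Long events were seen in every library. Inversions over 100 kb numbered 3 distinct calls in the pool, against 2 in each single plant. The pool had an inversion of 17.3 Mb on chromosome 3, listed 2 times from 1759669 with 6 and 8 reads, and 1 of 12.2 Mb on chromosome 4 between AT4G09630 and AT4G39170, listed with 8 and 9 reads. Mutant 1 had inversions of 13.6 Mb, from AT5G24890 to AT5G54460, and of 12.9 Mb on chromosome 5, with 6 and 7 reads. Mutant 2 had inversions of 26.1 Mb on chromosome 5, from AT5G01320 to AT5G65550, and of 4.06 Mb on chromosome 2, the second with an end in PIRL6, with 6 and 8 reads. An inversion has a pair of junctions, and the opposite junction within 10 kb was not found for any of the 5 distinct inversions of the pool, 4 of mutant 1 and 2 of mutant 2. A junction with fewer than 5 reads would not be in these lists.

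A group of 4 pool calls shared ends on chromosome 3. Ends at 5544877 to 5544888, in ABCG29, a transporter of a lignin precursor, were joined to 21761742 as a deletion of 16.2 Mb and to 21767065 as an inversion. The stretch from 21761746 to 21767066 was also called as a duplication of 5320 bp, and from 21761743 to 21767065 as an inversion of 5322 bp, the last 3 calls with an end in AT3G58875. Each of the 4 calls had 6 reads and imprecise positions. Mutant 1 had a group of this kind between 890593 and 892629 on chromosome 2, with deletions, duplications and inversions of 687 to 1347 bp at 6 to 9 reads, and mutant 2 had none.

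The other calls of the pool within chromosomes included a deletion of 1.41 Mb on chromosome 5 from AT5G36000 to AT5G38840 (9 reads), an inversion of 3354 bp that began in AT1G55980 (6 reads), a duplication of 8.44 Mb on chromosome 1 that ended in AT1G60900 (5 reads) and an insertion in NAC105, a transcription factor gene (5 reads). An insertion of unresolved length was listed 2 times at 3:18827083 in U1-70K, a protein of the splicing machinery, with 9 and 8 reads. In mutant 1 the calls in genes with most reads were a duplication of 1657 bp from AT1G59920 to AT1G59930 (8 reads), a deletion of 1.84 Mb ending in AT2G41990 (7 reads) and an insertion in AT2G32905 and AT2G32910 (6 reads). Its inversion of 6266 bp from AT1G07920 to AT1G07940, a pair of near-identical genes of translation elongation factor 1-alpha, had 5 reads and recurred in mutants 4 and 5. In mutant 2 an insertion in AT1G78040 had 7 reads and recurred in mutant 4. None of the 118 calls of the pool within nuclear chromosomes, all types counted, had a partner in mutant 1 or 2, which allows a share of up to 2.54%. That limit rests on the 97 inverted duplications among them. For the other types it is wide: 0 of 7 insertions and 0 of 7 inversions each allow up to 42.9%. Between the single plants, 3 of 28 calls of mutant 1 (10.7%) were in mutant 2, and 2 of 10 of mutant 2 (20.0%) in mutant 1. In the beam-irradiated plants 2 calls of the pool had a partner, both of a duplication at 3:1959230, of 2502 and 2501 bp, found in mutant 4.

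Between nuclear chromosomes the pool list held 25 joins, against 32 in mutant 1 and 28 in mutant 2. Joins with both ends at the ribosomal RNA loci of chromosomes 2 and 3, within 10 kb of the annotated genes, made 13 of these in the pool, against 15 in mutant 1 and 16 in mutant 2. They carried 245 reads in the pool, against 370 in mutant 1 and 318 in mutant 2, and the most supported single joins had 60, 76 and 59 reads in the pool, mutant 1 and mutant 2. Of the 13 joins of the pool, 12 had a partner in a single plant (92.3%, interval 64.0 to 99.8%). The exception, at 2:8727 and 3:14202696 with 29 reads, had partners in mutants 4 and 5. All ends of this kind lay between 1000 and 10372 on chromosome 2 and between 14191795 and 14205201 on chromosome 3, so a window of 500 bp is wide for them, and the share of partners that this packing alone gives was not tested.

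Joins with no end at a ribosomal RNA locus were 12 in the pool, against 15 in mutant 1 and 11 in mutant 2. Median support was 10.5 reads in the pool, against 11 in mutant 1 and 7 in mutant 2, and the highest was 27 in the pool, against 24 in mutant 1 and 19 in mutant 2. The best supported join of the pool linked 1:10585089, in PDH-E1 BETA, a subunit of plastid pyruvate dehydrogenase, to 5:12356078 (27 reads). Next came 1:11297453 to 2:2058168 (26 reads), with no gene at either end, and 2:6015296 to 5:776009 in AT5G03250 (24 reads). SLP3, of the subtilisin-like proteases, was joined to 4:4969210 (20 reads). Joins with an end in AT2G19180 and in NAC042, a transcription factor gene, had 11 and 10 reads.

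Single-plant joins of this kind lay at other places. In mutant 1, AT2G07290 was joined to 4:18051035 (24 reads), AT5G04860 to 2:15977384 (14 reads), Tic62, of the chloroplast protein import machinery, to 1:26438573 (13 reads), and AT1G65270 to PLSP1, a plastid signal peptidase (12 reads). In mutant 2, AT4G04670 was joined to 5:2077317 (19 reads), AT5G07430 to 2:13433500 (11 reads), GH9B14, of a glycosyl hydrolase family, to 5:2679665 (9 reads) and AT3G01980 to 5:15071994 (8 reads). No join of the pool had a partner in mutant 1 or 2, which for 0 of 12 allows a share of up to 25.0%. No reciprocal join, with both strands turned and both ends within 10 kb, was found for any of the 12 joins of the pool, 17 of mutant 1 and 12 of mutant 2, where joins with 1 ribosomal RNA end are counted.

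Mutants 1 and 2 did share some of these calls with each other. A join of chromosomes 1 and 5 lay at 11792992 and 18491692 with minus strands in mutant 1 (6 reads), and at 11793332 and 18491325 with plus strands in mutant 2 (5 reads). A join of AT2G16586 to the ribosomal RNA locus of chromosome 3 had 17 reads in mutant 1 and 9 in mutant 2, and was also in mutants 4 and 5. A duplication at 1:16737793 and a deletion at 1:17639364 (108 bp in mutant 1, 107 bp in mutant 2) were in both and also in mutant 5. Counted by single nuclear ends outside the ribosomal RNA joins and the chromosome 2 to mitochondrion joins, the pool shared 0 of 239 ends with mutant 1 and 0 of 239 with mutant 2, while mutant 1 shared 9 of 79 with mutant 2. Most ends of the pool were those of inverted duplications, of which mutants 1 and 2 have few. Without that type the pool shared 0 of 57 ends with mutant 1 and 0 of 57 with mutant 2, and mutant 1 shared 9 of 73 with mutant 2. A count of 0 of 57 would allow up to 5.26% if ends were independent. Many calls gave 2 ends, so that limit is too tight. The 9 shared ends include both ends of the join of chromosomes 1 and 5, of the duplication and of the deletion named above.

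Joins of nuclear chromosomes to organelle genomes were fewer in the pool than in both Antarctic single plants. There were 19, or 10.4% of its calls (interval 6.40 to 15.8%), against 33 or 29.5% in mutant 1 and 36 or 38.3% in mutant 2, with 151 supporting reads against 286 and 338. With inverted duplications left out of the total, these shares were 26.8% in the pool, against 30.6% in mutant 1 and 39.1% in mutant 2. The count, which inverted duplications do not enter, was below both Antarctic single plants but close to that of mutant 5, which had 21 such joins, while mutant 4 had 37.

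Most were joins of chromosome 2 to the mitochondrial genome, with 13 in the pool, against 21 in mutant 1 and 23 in mutant 2. Those of the pool ran from 3250464 to 3489714 on chromosome 2, in or near the region of mitochondrial DNA named above, and median support was 6 reads, against 7 in each single plant. By position, 8 of the 13 had a partner in mutant 1 or 2. Strands were not compared, and some of these partners had only the opposite strands. An example is the join at 3292002, plus at both ends in the pool and minus at both ends in mutant 1. A second count, chosen after the positions had been seen, asked whether joins lay on the same offset between the genomes, that is, whether the sum of both positions for same-strand joins, or their difference for opposite-strand joins, was within 500 bp. By that count all 13 joins of the pool had a counterpart in mutant 1 and in mutant 2. Such a counterpart can lie at another place on chromosome 2, and many joins of each library lie on a few offsets. A match was therefore likely beforehand, and the share of matches that this alone gives was not tested. In the other direction 16 of 21 joins of mutant 1 and 18 of 23 of mutant 2 had a counterpart in the pool.

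**Figure D4:**
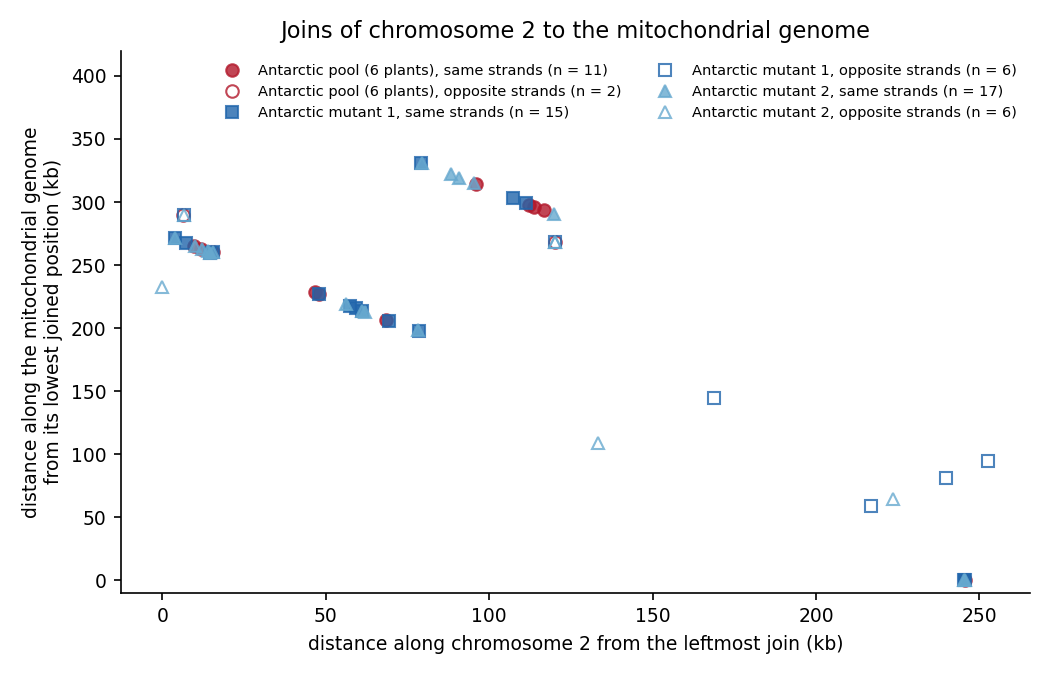
Each point is a join of chromosome 2 (horizontal, distance in kb from the leftmost join) to the mitochondrial genome (vertical, distance in kb from the lowest joined position), with filled points for joins of the same strands and open points for opposite strands. All 13 joins of the pool lie on lines that mutants 1 and 2 also have, while 5 of 21 joins of mutant 1 and 5 of 23 of mutant 2 lie on no line of the pool. More than 500 bp inside the edges of the 125 kb gap of the pool, mutant 1 has 3 joins and mutant 2 has 2.

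The joins of the pool left a gap of 125 kb on chromosome 2, from 3364268 to 3489714, in which, more than 500 bp from either edge, mutant 1 had 3 joins and mutant 2 had 2, with 5 to 9 reads. The join that ends this gap was the best supported of the kind in the pool, with 14 reads at 2:3489714 and position 12091 of the mitochondrial genome. Its strands were plus at both ends. The same place had 21 reads in mutant 1 and 25 in mutant 2, but with minus strands at both ends. Both also had a join with plus strands within 500 bp, in AT2G07806, with 11 reads in mutant 1 and 26 in mutant 2. Genes met by joins of the pool included AT2G07777 (11 reads, against 10 in mutant 1 and 11 in mutant 2), AT2G07687 (7 reads) and ABCI4, a gene of cytochrome c maturation (6 and 5 reads). At AT2G07698, next to the start of the gap, mutant 1 had a join of 20 reads and mutant 2 had 1 of 9 reads. Their partner in the pool was the join at 3364268, with 8 reads. Reads of these genes and of their mitochondrial copies can be hard to tell apart.

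Joins to the chloroplast genome numbered 5 in the pool, against 11 in mutant 1 and 12 in mutant 2. The best supported in the pool linked GC4, named as a golgin, to ndhC (2:18968472, 20 reads, precise), followed by AT3G49900 (10 reads), 3:11834902 (9 reads), and AT1G05310 and 3:13538738 (6 reads each). In mutant 1 the highest was AT5G53080 joined to atpF (25 reads), ahead of AT3G20362 (15 reads, also in mutants 4 and 5) and AT4G22850 (10 reads). In mutant 2 it was 1:30353907 with 26 reads, ahead of AT4G26350 (21 reads), AT3G08780 (18 reads) and ARA12, a subtilisin-like protease (11 reads). None of the 5 joins of the pool was in mutant 1 or 2, while mutants 1 and 2 shared the joins at 2:3188359 and 2:3495875. The join at 3:13538738 was also in mutants 4 and 5.

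Within organelle genomes the totals were close, at 20 calls in the pool, 19 in mutant 1 and 20 in mutant 2, and so were the reads, at 118, 111 and 122. The makeup was not. Of the 20 in the pool 14 were the chloroplast inverted duplications, and the remaining 6 compare with 18 in mutant 1 and 20 in mutant 2. Much of that gap was repeats of a call: merged, they were 5 distinct calls in the pool, 7 in mutant 1 and 8 in mutant 2. With inverted duplications counted, merging left 15 in the pool, against 8 in each single plant.

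Both organelle sequences stand for circular molecules and are written as a line, and calls that join the last positions to the first were listed as duplications. For the chloroplast there were 2 in the pool, against 4 in mutant 1 and 3 in mutant 2. For the mitochondrion there was 1 in the pool, against 4 in mutant 1 and 5 in mutant 2. With repeats merged, each organelle had 1 distinct call of this kind in the pool, in mutant 1 and in mutant 2. Another recurrent call, an inversion that joins the start of the chloroplast sequence to positions 84171 to 84175, at rps19, was listed 5 times in mutant 1 with 27 reads and 7 times in mutant 2 with 38 reads, and was not in the pool list. It was listed 12 times in mutant 4 and 4 times in mutant 5. The pool was thus the sole library of the 5 without a call of that junction at 5 or more reads.

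The other organelle calls of the pool were an inversion of the chloroplast from 2349, in matK, to 139413 (5 reads), an insertion in psbB, a photosystem II gene (5 reads), and a mitochondrial inversion between 12546 and 98709 (5 reads). The mitochondrial inversion had a partner in mutant 2. The end-to-end calls had partners in all 4 other libraries. With inverted duplications left out, 4 of 6 organelle calls of the pool had a partner in a single plant (66.7%, interval 22.3 to 95.7%), against 13 of 18 calls of mutant 1 found in mutant 2 (72.2%) and 15 of 20 of mutant 2 found in mutant 1 (75.0%). The shares did not differ beyond their counting error, and many of the single-plant calls repeat the same junctions. With repeats merged, 3 of 5 distinct calls of the pool had a partner, against 3 of 7 of mutant 1 and 3 of 8 of mutant 2. With inverted duplications counted and repeats kept, the share of the pool was 4 of 20.

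**Figure D5:**
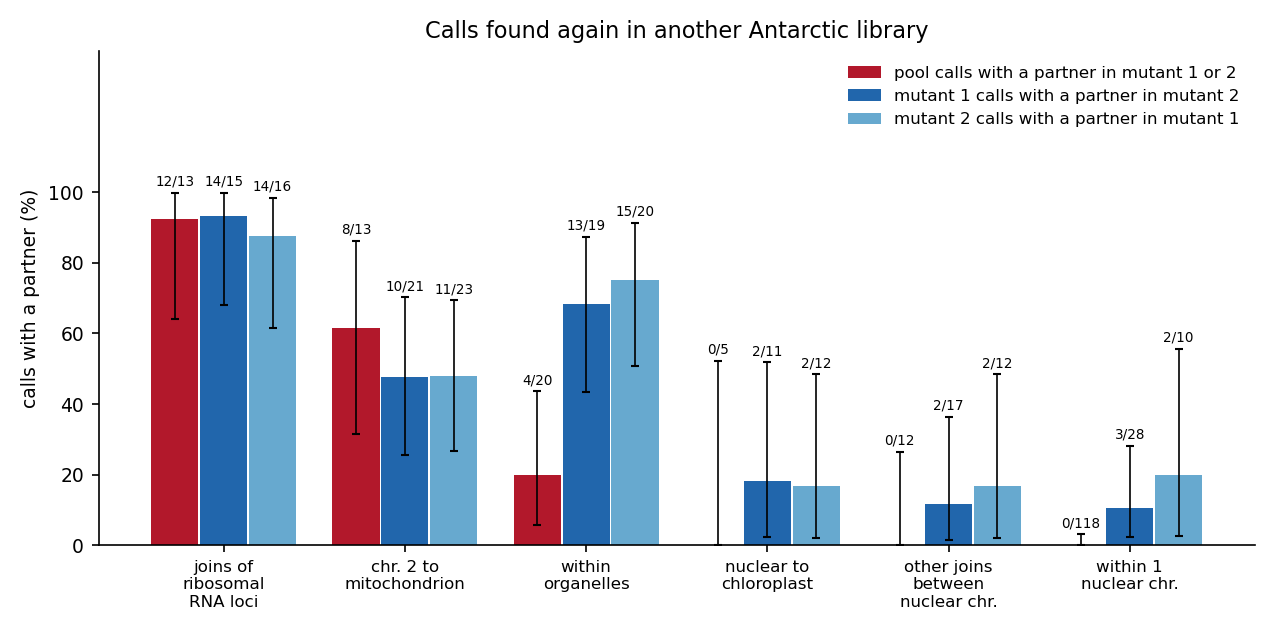
Share of calls (vertical, %) with a partner of the same type within 500 bp, for pool calls looked up in mutant 1 or 2, mutant 1 calls in mutant 2 and mutant 2 calls in mutant 1, with counts printed and exact 95% intervals as bars. Ribosomal RNA joins recur in all 3. Inverted duplications are counted and make 97 of the 118 pool calls within nuclear chromosomes and 14 of its 20 organelle calls; the pool has 0 of 118 within nuclear chromosomes, 0 of 12 other joins between them and 0 of 5 joins to the chloroplast.

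Over all classes, 24 of the 182 calls of the pool had a partner in mutant 1 or 2 (13.2%, interval 8.64 to 19.0%), 18 in mutant 1 and 23 in mutant 2. These were 12 ribosomal RNA joins, 8 joins of chromosome 2 to the mitochondrion and 4 organelle calls, and they had a median of 8 reads, against 6 for the 158 without a partner. Looked up the other way, 27 of 112 calls of mutant 1 (24.1%) and 32 of 94 of mutant 2 (34.0%) had a partner in the pool. Between the single plants, 44 of 112 calls of mutant 1 (39.3%) were in mutant 2 and 46 of 94 of mutant 2 (48.9%) were in mutant 1. Inverted duplications, none with a partner, weigh on the share of the pool. Without them 24 of 71 calls of the pool had a partner in mutant 1 or 2 (33.8%, interval 23.0 to 46.0%), against 44 of 108 of mutant 1 in mutant 2 (40.7%, interval 31.4 to 50.6%) and 46 of 92 of mutant 2 in mutant 1 (50.0%, interval 39.4 to 60.6%). These intervals overlap. With repeats merged as well, 23 of 66 distinct calls of the pool had a partner, against 30 of 87 of mutant 1 and 29 of 74 of mutant 2. Calls of the pool were looked up in the lists of both single plants, those of a single plant only in the list of the other. The lists also differ in length and hold repeats of a call, so the shares differ by direction.

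Genes of a list of 18 loci of DNA break signalling and repair, and of 9 loci of organelle genome maintenance, were looked up as well. Counted here were calls of at most 100 kb within a nuclear chromosome, and joins of a nuclear chromosome to another or to an organelle. Longer calls, and joins with both ends at ribosomal RNA loci, were left out. None of either list was met by a counted call in the pool, mutant 1 or mutant 2. Over all 27562 protein-coding genes the counted calls met 73 in the pool (0.265%), 42 in mutant 1 (0.152%) and 28 in mutant 2 (0.102%), the background against which the lists are read.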

How the data were processed

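Libraries with inserts of about 10 kb were sequenced on the PacBio Sequel, aligned with NGMLR and called with Sniffles by the authors, per the labels and series text. For tool versions, settings and the filter rule, nothing is stated (not given in the sources used here). Positions are on TAIR10, according to the submitters' processing notes. The split read counts are raw counts of supporting reads per call, as deposited by the authors. The unfiltered lists were used, with the best positions. First position columns held placeholders in 4 rows of the pool and 20 of the single plants. Calls matched when type and chromosomes agreed and both positions, or the first for insertions, lay within 500 bp, strands not compared. Repeats of a call within a library were merged by the same rule for distinct calls. Depth per library is unknown, so a missing call can mean too few reads. Limits for 0 use 3 counts. Gene names came from a RefSeq table of TAIR10.1, gene bodies of 27562 protein-coding genes. That table is of another assembly name, none of its coordinates is printed, and its mitochondrial genes were not used. A call met a gene when an end lay in its body, introns included. The rule for named genes took the 5 calls in genes with most reads per class and library; others were chosen after their values were seen. Members and lists were chosen with earlier results of these data known. Matching was tested on simulated lists. Python 3.11.15, pandas 2.3.3, numpy 2.4.6 and scipy 1.17.1 were used.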

Additional observations from a re-analysis of the deposited data

How the results depend on the processing

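No paired analysis was possible because the pool and the single plants share no replicate number. Differences are pool minus the mean of mutants 1 and 2. For all calls this came to 79, and to 96 in the authors' filtered lists. It was 17.5 under a minimum of 8 reads and -2 under a minimum of 10. The minimum of 10 leaves few calls within chromosomes in any library, since none there exceeds 10 reads. For nuclear inverted duplications it was 94.5, and 20.5 and 5 at the same minimums, the same 94.5 in the authors' filtered lists and 88.5 with repeats merged. For other calls within nuclear chromosomes it was 4.5, and 2.5 in the filtered lists, -0.5 with at least 10 reads, -1.5 by the first position columns, and -4 to 13 when a single plant was left out, -4 being against mutant 1 alone. For calls between nuclear chromosomes it was -5, and -1 in the filtered lists, 0 with at least 8 reads, -1 with at least 10 reads, -2.5 with repeats merged, -1 by the first position columns, and -7 to -3 with a plant left out. For nuclear to organelle calls it was -15.5, and 0 in the filtered lists, which hold none, -7.5 with at least 8 and -5.5 with at least 10 reads. For organelle calls it was 0.5, and 0 in the filtered lists and at both read minimums, 7 with repeats merged, and 0 to 1 with a plant left out. For median reads it was -1, and -2 and -3.5 at the read minimums. Without inverted duplications the median was 7 in the pool and in both single plants. Of all calls of the pool 13.2% had a partner, and 22.8% with at least 8 reads, 34.6% with at least 10 reads, 7.69% within 100 bp, 0 in the filtered lists and 33.8% without inverted duplications, a setting chosen after seeing the data. Of its nuclear calls 8.39% had a partner, and 17.0% and 33.3% at the read minimums, 0 in the filtered lists, 4.90% within 100 bp and 26.1% without inverted duplications. Of 66 recomputed values, 31 kept their direction and stayed within 1.5 times the reported count, within the 95% interval of the reported share, or at the reported median. Lists under read minimums and the filter hold fewer calls. The filtered lists kept all 97 nuclear inverted duplications of the pool. They kept no organelle call, no nuclear to organelle join and no join with both ends at ribosomal RNA loci. All 24 pool calls with a partner were of these dropped classes, so the share of 0 there was fixed by the filter. For the other settings the cause was not tested. Depth per library is unknown, a call under 5 reads is not listed, and the series holds a single pool, so its difference from the single plants has no replicate check.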
